A study of Mus musculus with 121 samples.

Results

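Collagens are structural proteins of the extracellular matrix whose chains wind around each other into a rope-like helix. In the brain, collagen genes are read in the meninges, in the vessel wall and in some neurons, and their products build fibrils, sheets, beaded filaments or proteins anchored in the cell membrane. Gdnf encodes a secreted survival factor for dopamine neurons and is read mainly in the striatum. The genes followed here are the symbols made of Col, a number, the letter a and a number, that reach 1 cpm (reads of the gene per 1000000 reads of the library) in 3 or more libraries of the study. They are 43 of the 44 collagen symbols among the 24412 genes of the table, of which 15675 pass the same threshold. Col10a1, the short-chain collagen of growing cartilage, reached it in 1 library and lies just outside. The members nearest to the threshold, Col4a4 (37 libraries), Col4a3 (41) and Col6a6 (57), lie well inside. By class the members are 11 fibrillar collagens, 6 chains of the basement membrane network (type IV), 2 short-chain collagens (type VIII), 6 chains of beaded filaments (type VI), 9 fibril-associated collagens with interrupted helices (FACIT), 4 transmembrane collagens, 2 multiplexins and 3 others. The FACIT genes Col19a1 and Col16a1 had been named for the family beforehand and are followed through every comparison.

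The mice carried cKU, a conditional allele that raises endogenous Gdnf from its own locus once Cre has replaced the 3′ end of the gene. Adult males of a mixed 129Ola/ICR/C57bl6 background were wt/wt (WT), wt/cKU (HET) or cKU/cKU (HOM), and WT littermates were the controls. In the Nestin-Cre model Cre was active in the central nervous system from mid-gestation, and mice were 2 months old by the labels. The paper gives a wider age range for striatum and substantia nigra of this model. In the AAV-Cre model a viral vector with Cre was injected into the striatum of both sides at 3 to 5 months, in WT too, and mice were 5 to 7 months old. Prefrontal cortex (PFC), striatum (STR) and substantia nigra (SN) of 21 Nestin-Cre and 22 AAV-Cre mice gave 56 and 65 poly-A stranded libraries. Group sizes for WT, HET and HOM were 8, 6 and 4 in Nestin-Cre PFC, 6, 7 and 6 in Nestin-Cre STR and again 6, 7 and 6 in Nestin-Cre SN. In AAV-Cre mice they were 7, 7 and 8 in PFC, 7, 7 and 7 in STR and 7, 7 and 8 in SN. Library totals ran from 9869584 to 26750905 counts, with a median of 17885830. Age, injection and source of Cre differ together between the models and cannot be told apart.

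Gdnf itself was measured over annotated exons that include the replaced 3′ end, so its counts are not a clean check of the allele. In Nestin-Cre STR the mean was 5.69 cpm in WT (3.88 to 7.21), 6.2 in HET (4.04 to 9.05) and 7.04 in HOM (5.79 to 9.59), and the ranges overlapped. In AAV-Cre STR it was 6.63 (5.45 to 7.45), 7.56 (6.46 to 9.42) and 8.72 (7.71 to 9.98), with HOM above every WT library. The log2 fold changes against WT were 0.07 and 0.28 in Nestin-Cre STR and 0.20 and 0.40 in AAV-Cre STR for HET and HOM. By the edgeR quasi-likelihood test with Benjamini-Hochberg adjustment over all genes their adjusted p values were 0.85, 0.784, 1 and 0.504, so Gdnf did not pass. Throughout, a gene is said to pass, to rise or to fall when this test gave an adjusted p under 0.1.

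The region labels were checked against lists of 4 marker genes each. In WT the PFC list summed to 1920 cpm (Nestin-Cre) and 1702 cpm (AAV-Cre) in PFC, with Slc17a7 the most abundant, and to 30.4 to 128 cpm elsewhere. The STR list, led by Ppp1r1b, summed to 5319 and 3969 cpm in STR and to 58.6 to 499 cpm elsewhere. The SN list, led by Slc6a3, summed to 2436 and 2472 cpm in SN and to 9.94 to 18.7 cpm elsewhere, with En1 at 0 in all AAV-Cre PFC WT libraries. The labels of mouse M4575 differ by region (WT for its PFC library, HOM for the other pair), and they were kept. After seeing the data, 9 libraries were found with more than 1000 cpm of Ttr, the main transcript of the choroid plexus (1145 to 20041 cpm, against at most 260 in all others). They are 1 of Nestin-Cre STR HET, 1 of AAV-Cre PFC HET, 2 each of AAV-Cre STR WT, HET and HOM, and 1 of AAV-Cre SN HET. A further 4 libraries, all of Nestin-Cre SN (2 WT, 1 HET, 1 HOM), held 1219 to 1596 cpm summed over 12 markers of meningeal and perivascular fibroblasts, against at most 972 elsewhere. The 2 WT libraries among them also held 235 and 176 cpm of the PFC list, against 10.2 to 13.3 in the other Nestin-Cre SN WT libraries, the HET library held 137 and the HOM library 221. Some libraries kept throughout held as much RNA of another region's list. For the PFC list these included Nestin-Cre STR WT M4326 (289) and M4609 (282), STR HOM M4569 (482) and AAV-Cre SN HOM M3611 (316). Nestin-Cre SN HET M4566 held 713 cpm of the STR list, and AAV-Cre SN WT M3587 held 239 of the PFC list and 372 of the STR list. The main results that change without the libraries rich in Ttr or fibroblast markers are given both ways.

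Levels can be compared between genes only per kilobase of exon. The beaded-filament gene Col6a1 was by this measure the most abundant collagen of cortex and striatum. Its mean per kilobase in WT was 38.0 ± 6.47 cpm in Nestin-Cre PFC, 43.3 ± 16.8 in Nestin-Cre STR, 64.3 ± 9.69 in AAV-Cre PFC and 62.8 ± 10.6 in AAV-Cre STR. In SN it fell to rank 10 in Nestin-Cre mice (5.42 ± 5.37) and to rank 9 in AAV-Cre mice (5.25 ± 3.95). There the most abundant member was Col25a1, a transmembrane collagen of neurons, with 15.7 ± 2.23 in Nestin-Cre and 21.7 ± 3.87 in AAV-Cre SN. Of the type IV chains, Col4a2 was the most abundant in each region, from 6.65 ± 1.58 in Nestin-Cre STR to 20.45 ± 4.26 in AAV-Cre PFC. The leading fibrillar gene was Col1a2 in Nestin-Cre PFC (5.11 ± 1.56) and Nestin-Cre SN (11.2 ± 10.3). It was Col11a2 in AAV-Cre PFC (6.51 ± 2.24) and in STR (7.91 ± 1.84 Nestin-Cre, 12.0 ± 1.73 AAV-Cre). In AAV-Cre SN Col11a1 led (15.5 ± 3.69). Without the 2 libraries rich in fibroblast markers Col1a2 in Nestin-Cre SN was 4.93 ± 1.05, below Col11a2 (8.60 ± 1.58) and Col11a1 (5.43 ± 0.938), and Col6a1 was 2.00 ± 0.36, at rank 12. Among FACIT genes, Col19a1 led in Nestin-Cre PFC (4.85 ± 0.73), Col9a3 in STR (AAV-Cre 12.9 ± 9.14, and 9.03 ± 1.33 and still first without the libraries rich in Ttr) and in Nestin-Cre SN (8.75 ± 2.48), and Col16a1 in AAV-Cre PFC (7.69 ± 1.70) and SN (15.0 ± 3.07). The short-chain Col8a1 was low (0.515 in Nestin-Cre PFC, rank 30), and the multiplexin Col18a1, the precursor of endostatin, reached 3.46 ± 1.85 in AAV-Cre SN, rank 11. Summed over the 43 members, WT levels were 822.6 (PFC), 587.9 (STR) and 707.6 cpm (SN) in Nestin-Cre mice and 1093, 877.9 and 962.4 cpm in AAV-Cre mice; without the libraries that stood apart Nestin-Cre SN summed to 567.4 and AAV-Cre STR to 857.5 cpm.

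**Figure D1:**
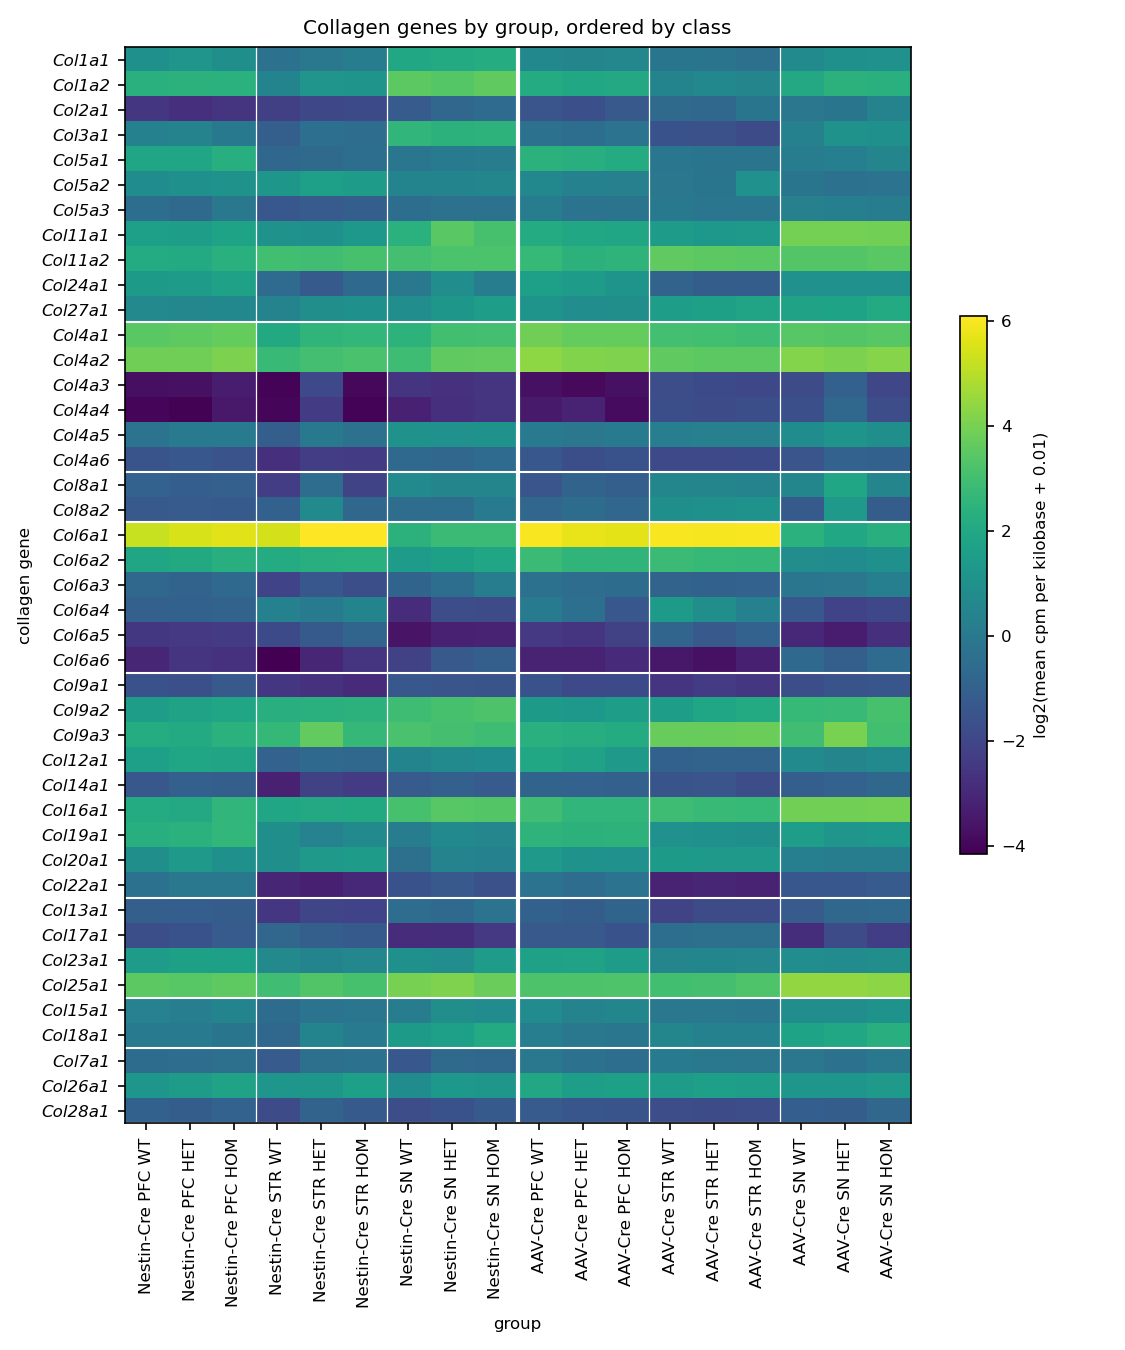
Mean level of each of the 43 collagen genes per kilobase in the 18 groups, ordered by class. Col6a1 is brightest in PFC and STR (38.0 to 64.3 cpm per kilobase in WT) and Col25a1 leads in SN (15.7 and 21.7).

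In WT striatum more collagens were lower than higher against cortex in both models. In Nestin-Cre mice 4 of 43 members were higher and 26 lower in STR than in PFC, where 34.8% of all genes were higher and 33.5% lower. In AAV-Cre mice 10 were higher and 19 lower, against 30.5% and 28.5% of all genes. The median log2 fold change of the members was -0.82 (Nestin-Cre) and -0.43 (AAV-Cre), against 0.01 and 0.02 over all genes. Both models shared 17 lower and 3 higher members (Col6a4, Col11a2 and Col17a1). The share of all genes called alike in both models was not taken, so these shared counts are a description only. With mouse as a block the counts over both directions were 26 and 31 in place of 30 and 29. Without the 9 libraries rich in Ttr they were 31 and 24. These totals have no share of all genes beside them and do not bear on the direction.

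The members that fell furthest in both models were a pair of FACIT and a pair of fibrillar genes. Col22a1, a FACIT of tissue junctions, measured 4.98 cpm in Nestin-Cre PFC (lowest 4.23, median 4.90, highest 6.39) and 0.675 in STR (0.256, 0.587, 1.29). In AAV-Cre mice it measured 5.12 cpm (4.35, 5.00, 6.86) and 0.609 (0.353, 0.600, 0.830). No library of STR reached a library of PFC, and the log2 fold changes were -2.86 (standard error 0.25, edgeR quasi-likelihood with Benjamini-Hochberg adjusted p 4.33e-19) and -3.04 (0.24, 4.54e-21). Col12a1, a FACIT of dense connective tissue, went from 36.5 cpm (30.3, 33.8, 47.9) to 5.95 (2.24, 5.44, 10.04) in Nestin-Cre mice. In AAV-Cre mice it went from 44.9 cpm (33.3, 45.2, 52.5) to 5.84 (4.32, 5.40, 7.43). Both differences were without overlap (log2 fold change -2.60, adjusted p 2.76e-15; -2.95, 1.51e-18). Col5a1, a chain that nucleates type I fibrils, fell from 30.9 cpm (22.03, 33.1, 41.6) to 4.90 (2.63, 3.92, 10.9) in Nestin-Cre mice, again without overlap (-2.64, adjusted p 7.92e-12). In AAV-Cre mice it fell from 45.5 cpm (28.3, 44.1, 62.5) to 7.49 (5.76, 7.24, 11.0; -2.61, adjusted p 1.46e-12). Col24a1, a minor fibrillar collagen, fell by log2 2.00 and 2.51 (adjusted p 4.16e-08 and 2.83e-11), also without overlap. In WT libraries of either model none of these 4 genes overlapped between cortex and striatum. They were named as the largest falls of this comparison, and the share of all genes without overlap was not taken. Their lack of overlap is therefore a description only. Among the fibrillar genes Col11a2 went the other way, from 29.1 cpm (21.3, 29.0, 39.1) to 52.2 (34.5, 55.9, 68.0) in Nestin-Cre mice, with overlap (0.84, adjusted p 2.5e-05), and by 0.88 in AAV-Cre mice (1.27e-05). Col6a4, a beaded-filament chain, rose by 1.35 (adjusted p 0.0192) and 1.37 (0.0189), and its libraries overlapped widely (0.592 to 9.61 cpm in Nestin-Cre PFC, 3.45 to 18.9 in STR). Of the type IV chains, Col4a1 and Col4a2 fell in both models (Nestin-Cre -1.38 and -1.14, AAV-Cre -0.87 and -0.76).

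The rises of Col4a3, Col4a4, Col8a1 and Col8a2 in AAV-Cre STR depended on the libraries rich in Ttr. With all libraries, the log2 fold changes of Col4a3 and Col8a1 from PFC to STR were 2.05 and 2.02 (adjusted p 0.00831 and 0.00684). In AAV-Cre STR WT, Col8a1 measured 6.90 and 37.5 cpm in the 2 libraries rich in Ttr and 0.939 to 2.05 (median 1.27) in the other 5. Without libraries over 1000 cpm of Ttr the value of Col8a1, AAV-Cre WT, STR minus PFC was -0.32 (adjusted p 0.372), and that of Col4a3, AAV-Cre WT, STR minus PFC was 0.22 (0.679).

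**Figure D2:**
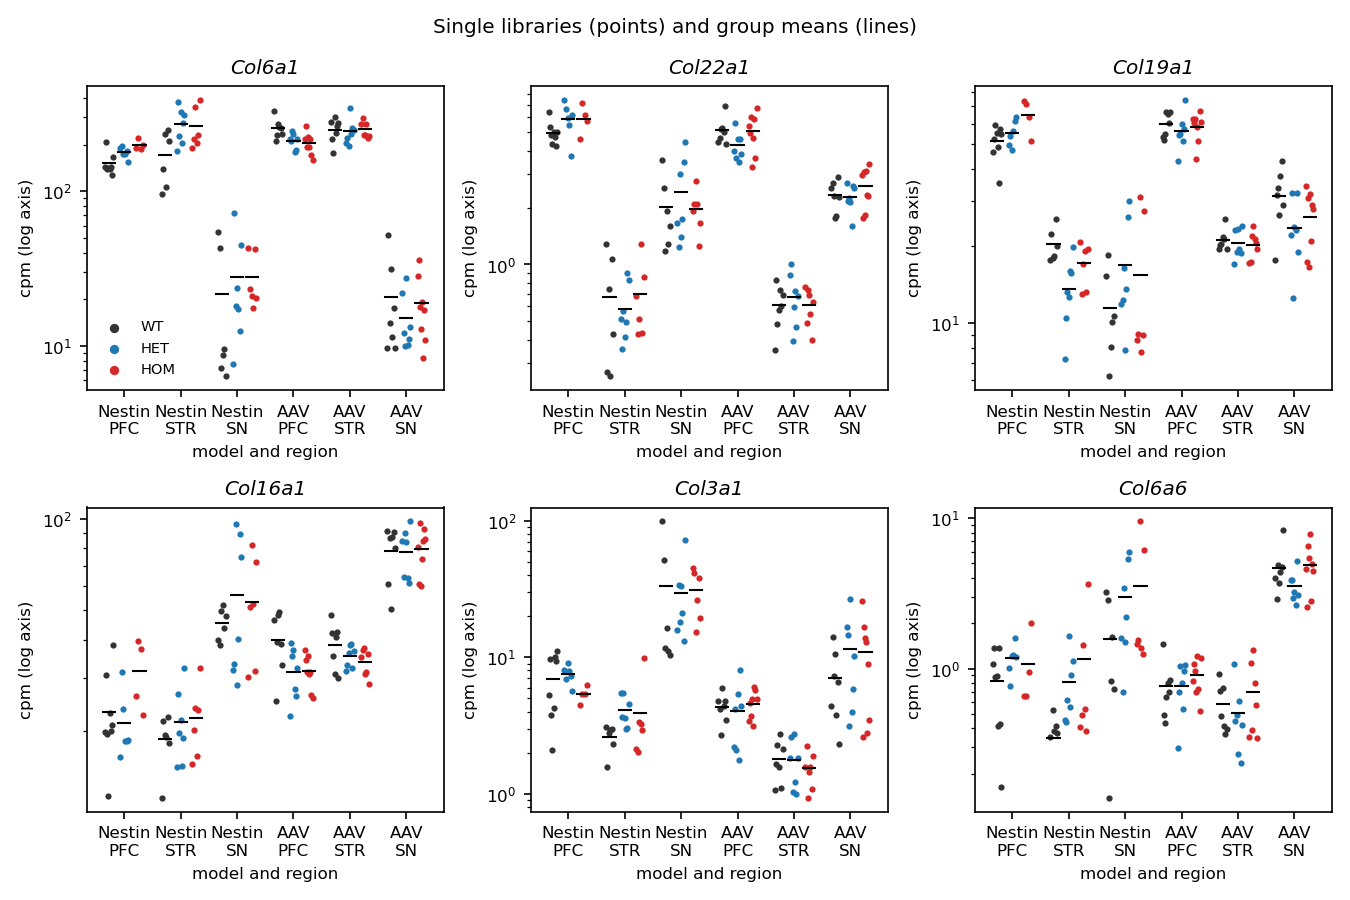
Single libraries of 6 collagen genes by model, region and genotype, with group means. Col22a1 libraries of STR (0.353 to 0.830 cpm in AAV-Cre WT) lie below all those of PFC (4.35 to 6.86), and Col6a1 is lowest in SN (9.73 to 52.1 cpm in AAV-Cre WT).

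In WT substantia nigra collagens differed from PFC in numbers near the shares of all genes, and from STR more often upwards. Against PFC, 17 of 43 members were higher and 16 lower in Nestin-Cre mice, where 38.8% of all genes were higher and 40% lower. In AAV-Cre mice 13 were higher and 14 lower, against 32.5% and 35.7% of all genes. Against STR, 23 were higher and 8 lower in Nestin-Cre mice (38.6% and 38% of all genes) and 21 were higher and 8 lower in AAV-Cre mice (34.9% and 35.8%). Both models shared 11 higher and 12 lower members against PFC, and 17 higher and 6 lower against STR. These shared counts again have no share of all genes beside them and are a description only. The member medians against STR were 0.71 and 0.44, those of all genes 0.02 and -0.004. With mouse as a block the counts over both directions were 32, 30, 27 and 32 in place of 33, 31, 27 and 29. Without the 4 libraries rich in fibroblast markers they were 29, 28, 28 and 30. Neither set of totals has a share of all genes beside it, and neither bears on the direction.

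Beaded-filament chains split in SN. Col6a1, shared by all type VI assemblies, measured 151 cpm (127, 142, 209) in Nestin-Cre PFC, 172 (96.0, 174, 248) in STR and 21.6 (6.37, 9.13, 54.4) in SN. In AAV-Cre mice the values were 256 (209.6, 256, 329.7), 249.8 (176, 263, 299.5) and 20.9 (9.73, 14.1, 52.1). SN lay below every PFC library in both models, with log2 fold changes of -2.81 (adjusted p 1.08e-12) and -3.61 (4.35e-18). Against STR they were -3.00 (3.9e-13) and -3.57 (5.91e-18). Without the libraries rich in fibroblast markers the Nestin-Cre falls were larger, -4.24 against PFC (adjusted p 1.43e-18) and -4.42 against STR (5.65e-19). Col6a2, Col6a4 and Col6a5 also fell from STR to SN in both models, while the chains Col6a3 and Col6a6 rose. In Nestin-Cre mice without those libraries Col6a2 went from -0.65 to -1.77, Col6a3 from 1.30 to 0.70 (adjusted p 0.0838) and Col6a6 from 2.17 to 1.29 (0.0362). Col6a6 measured 0.77 cpm in AAV-Cre PFC (0.432, 0.701, 1.46) and 4.70 in SN (2.89, 4.36, 8.34), without overlap (2.58, standard error 0.43, adjusted p 1.06e-07). The type VI chains thus moved in both directions between the same regions.

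Of the transmembrane collagens, Col25a1 rose from 56.8 cpm (42.5, 58.6, 66.8) in Nestin-Cre STR to 117.7 (87.4, 121.5, 135.6) in SN, without overlap (1.05, adjusted p 1.67e-11). In AAV-Cre mice it rose from 59.3 cpm (48.2, 54.9, 83.0) to 162.6 (112.8, 159.1, 197.9), again without overlap (1.46, adjusted p 1.14e-19). Col17a1, the hemidesmosome collagen, fell by 2.18 and 2.46 from STR to SN in Nestin-Cre and AAV-Cre mice (adjusted p 3.48e-08 and 4.1e-11). Among the fibrillar genes Col11a1, a minor fibril component, rose from 20.9 cpm (16.9, 20.9, 25.4) in AAV-Cre STR to 119.5 (83.5, 127.5, 151) in SN, without overlap (2.51, adjusted p 2.24e-17). In Nestin-Cre mice it rose from 16.5 cpm (11.1, 12.6, 33.0) to 40.1 (32.5, 39.9, 50.0), with overlap (1.28). The interstitial collagens Col3a1, Col1a2 and Col1a1 rose from STR to SN in both models. Col3a1 measured 2.61 cpm in Nestin-Cre STR (1.57, 2.86, 3.10) and 33.5 in SN (10.4, 14.1, 99.5), without overlap (3.68, adjusted p 1.5e-11). In AAV-Cre mice it measured 1.79 cpm (1.06, 1.66, 2.72) and 7.00 (2.33, 6.57, 14.0), with overlap (1.96, adjusted p 5.71e-05). For Col1a2 the log2 fold changes were 3.02 and 1.56, and for Col1a1 2.32 and 0.92. The Nestin-Cre values from STR to SN without libraries over 1000 cpm of fibroblast markers were smaller and still passed: 2.26 for Col3a1 (adjusted p 1.98e-06), 1.84 for Col1a2 (1.89e-07) and 1.45 for Col1a1 (4.49e-06). Against PFC, Col1a2 in AAV-Cre SN did not pass (-0.11, adjusted p 0.775).

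The FACIT genes Col19a1 and Col16a1 were highest in different regions, though both rose from STR to SN in AAV-Cre mice. Col19a1, read in some neurons, was highest in PFC, at a mean of 51.1 cpm in the Nestin-Cre model (35.1, 53.5, 59.1) and 59.9 in the AAV-Cre model (51.6, 60.4, 66.8). STR held 20.3 (17.7, 19.2, 25.5) and 21.1 cpm (19.4, 20.4, 25.5), without overlap with PFC (-1.33, adjusted p 2.63e-08; -1.50, 3.75e-10). SN held 11.5 (6.22, 10.4, 18.5) and 31.3 cpm (17.7, 31.5, 42.8), also below every PFC library (-2.15, adjusted p 1.16e-15; -0.94, 2.32e-05). From STR to SN it fell by 0.82 in Nestin-Cre mice (adjusted p 0.000901) and rose by 0.56 in AAV-Cre mice (0.011), the only member to pass in opposite directions there. Without the libraries rich in fibroblast markers its Nestin-Cre falls were 2.52 from PFC and 1.18 from STR. Col16a1, a FACIT of small fibrils, was highest in SN, with 45.3 (38.5, 45.6, 52.2) and 78.2 cpm (50.6, 86.3, 91.1). PFC held 23.0 (12.2, 20.4, 38.3) and 40.0 cpm (25.2, 39.3, 49.4), below every SN library (0.97, adjusted p 5.12e-06; 0.97, 5.77e-06). STR held 18.8 (12.0, 19.3, 22.2) and 38.5 cpm (29.8, 40.95, 48.2), again below SN (1.27, 9.2e-08; 1.02, 1.65e-06), and did not differ from PFC by the test.

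Genes that make, process, bind or break down collagen were read alongside, as 6 lists of 71 genes. Of these 68 were tested between regions. Each list's count from the fit of all libraries is to be read against the shares of all genes given above. Counts with some libraries left out have no such share and cannot be read against them. In Nestin-Cre mice 33.5% of all genes were lower and 34.8% higher in STR than in PFC. There 6 of 18 genes of synthesis and folding were lower and 4 higher, 6 and 2 of 13 for processing and cross-linking, 4 and 1 of 9 receptors, 7 and 1 of 10 for breakdown, 9 and 1 of 12 other basement membrane genes, and 6 and 0 of 6 small leucine-rich proteoglycans, which coat fibrils. In AAV-Cre mice (28.5% and 30.5%) the same lists had 7 and 7, 1 and 3, 3 and 2, 3 and 1, 3 and 2, and 5 and 0, and without the libraries rich in Ttr 8 and 4, 2 and 2 (of 12), 3 and 2, 4 and 1, 2 and 2, and 5 and 0. From STR to SN in Nestin-Cre mice, where 38.6% of all genes were higher and 38% lower, they had 10 higher and 4 lower, 8 and 2, 7 and 1, 9 and 1, 8 and 2, and 6 and 0, and without the libraries rich in fibroblast markers 9 and 4, 6 and 3, 6 and 1, 9 and 1, 8 and 2, and 6 and 0. In AAV-Cre mice (34.9% and 35.8%) they had 9 and 4, 4 and 3, 3 and 1, 8 and 1, 3 and 3, and 5 and 0. With the libraries rich in Ttr left out, more were higher: 11 and 4, 7 and 2 (of 12), 5 and 1, 9 and 1, 5 and 1, and 5 and 0. With those rich in fibroblast markers left out, none of which is AAV-Cre, they were 10 and 4, 5 and 3, 4 and 1, 8 and 1, 6 and 3, and 5 and 0. The basement membrane count thus moved in both refits. The processing and receptor counts moved more without the libraries rich in Ttr. In these comparisons no proteoglycan was called in the other direction, with medians from STR to SN of 3.39 in Nestin-Cre mice (2.09 without the libraries rich in fibroblast markers, 6 of 6 still higher) and 1.89 in the AAV-Cre model. From PFC to SN 5 proteoglycans were higher and 0 lower in Nestin-Cre mice, and 1 and 1 without the libraries rich in fibroblast markers. In AAV-Cre mice 1 was higher and 1 lower. Adamts3, which trims procollagen ends, rose from PFC to STR by 1.96 and 1.71 and fell from STR to SN by 3.78 and 3.23. Plod2, which prepares collagen for cross-linking, fell from PFC to STR by 0.90 and 0.945 and rose from STR to SN by 1.72 and 1.42.

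Bulk tissue cannot tell fewer cells of a type from less RNA per cell, so marker genes of collagen-bearing cells were read in the same libraries. The 12 fibroblast markers, all present and led by Igf2, summed in WT to 208 ± 46.7 (PFC), 72.9 ± 27.1 (STR) and 655 ± 657 cpm (SN) in Nestin-Cre mice. In AAV-Cre mice they summed to 201 ± 41.6, 118 ± 142 and 226 ± 179 cpm. Without the libraries rich in Ttr or fibroblast markers the sum was 233 ± 54.1 cpm in Nestin-Cre SN and 51.6 ± 6.22 in AAV-Cre STR. The 9 endothelial markers, led by Slc2a1, summed to 280, 199 and 334 cpm in Nestin-Cre and to 358, 317 and 419 cpm in AAV-Cre WT, with no marker at 0. The 9 pericyte and smooth muscle markers, led by Rgs5 or Vtn, summed to 259, 205 and 550 cpm (SN 307 without the same libraries) and to 279, 246 and 310 cpm. The 8 choroid plexus markers summed to 16.8, 139 and 112 cpm in Nestin-Cre WT, and to 16.8, 2143 ± 3409 (200 without those libraries) and 44.1 cpm in AAV-Cre WT. Whether these cells carry the collagen differences was not tested.

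Single members varied with these markers from mouse to mouse. Within each model and region, genotype means removed, 12 relations were tested by a two-sided permutation test, whose smallest possible p is 1e-05, with Benjamini-Hochberg adjustment over the 12. Col1a1 followed the fibroblast markers closely in SN: r 0.849 in Nestin-Cre (19 libraries; rho 0.86; p 1e-05, adjusted 6e-05; for rho p 2e-05, adjusted 0.00012) and 0.776 without the 2 farthest libraries. In AAV-Cre SN r was 0.916 (22 libraries; rho 0.942; p 1e-05, adjusted 6e-05; for rho p 1e-05, adjusted 0.00012) and 0.901 without the farthest 2. In Nestin-Cre PFC r was 0.763 (18 libraries; p 0.00038, adjusted 0.00086; rho 0.664, p 0.00316, adjusted 0.00758; 0.567 without 2). In Nestin-Cre STR r was 0.697 (19 libraries; p 0.00263, adjusted 0.00351; rho 0.474, p 0.0426, adjusted 0.0548) and fell to 0.31 without 2. In AAV-Cre PFC and STR r was 0.319 and 0.236 (22 and 21 libraries; p 0.148 and 0.301, adjusted 0.162 and 0.301), rho 0.432 and 0.249 (p 0.0456 and 0.274, adjusted 0.0548 and 0.274), and 0.414 and 0.334 without 2.

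Col4a1 followed the endothelial markers in each region and model by r. In Nestin-Cre mice r was 0.558 in PFC (p 0.0157, adjusted 0.0188; rho 0.548, p 0.0208, adjusted 0.0312; 0.534 without 2) and 0.729 in SN (p 0.00043, adjusted 0.00086; rho 0.602, p 0.00755, adjusted 0.0129; 0.612 without 2). In STR it was 0.666 (p 0.00151, adjusted 0.00226), with a rank correlation of 0.377 (p 0.114, adjusted 0.125) and 0.446 without 2. In AAV-Cre mice r was 0.715 in PFC (p 0.00022, adjusted 0.00086; rho 0.671, p 0.00091, adjusted 0.00273; 0.591 without 2). In STR it was 0.678 (p 0.00064, adjusted 0.0011; rho 0.594, p 0.00544, adjusted 0.0109; 0.501 without 2), and in SN 0.691 (p 0.00038, adjusted 0.00086; rho 0.708, p 0.0004, adjusted 0.0016; 0.695 without 2). Each gene was read against 1 marker list only, so these values do not compare cell types.

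The libraries rich in Ttr or in fibroblast markers stood apart in sets of members that partly overlap. The share of all genes that stood apart in the same way was not taken, so the counts of members here are a description only. In all 6 groups that hold such libraries, the type IV chain Col4a4, the short-chain Col8a1 and the FACIT Col9a3 were above every other library of the group, and Col4a3 and Col8a2 were so in 5 of 6. In AAV-Cre SN HET, Col8a1 measured 79 cpm in the library rich in Ttr and 5.28 to 11.8 (median 7.31) in the others. Col9a3 measured 187 cpm there, against 16.9 to 27.4 (median 23.9). In the libraries rich in fibroblast markers, 11 members were above all others in 3 of 3 groups: Col1a1, Col1a2, Col3a1, Col5a1, Col6a2, Col12a1, Col23a1, Col4a5, Col9a2, Col8a1 and Col8a2, with Col3a1 at 51.7 and 99.5 cpm in Nestin-Cre SN WT against 10.4 to 16.5 (median 11.3). Col4a3 and Col4a4 were so in 2 of these 3 groups and Col9a3 in 0. Col16a1, Col25a1 and Col11a1 were above the others in 0 of the 6 groups with Ttr and 0 of the 3 with fibroblast markers, and Col19a1 in 0 of 6 and 2 of 3.

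**Figure D3:**
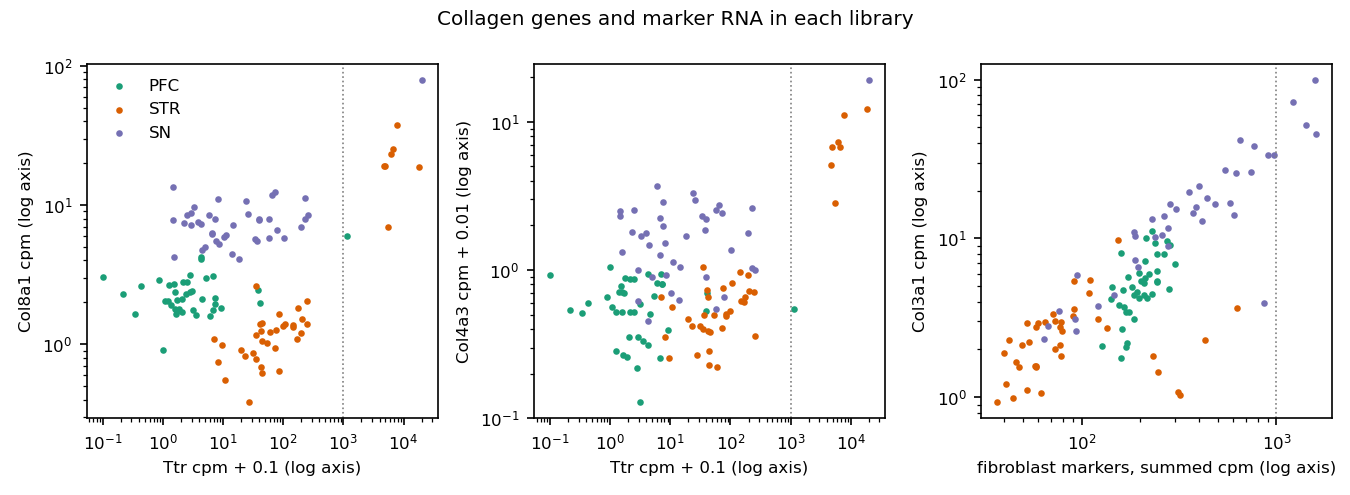
Collagen genes against marker RNA in each library. Col8a1 and Col4a3 are high where Ttr exceeds 1000 cpm (dotted line; Col8a1 up to 79 cpm), and Col3a1 climbs with the summed fibroblast markers to 99.5 cpm.

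In each region more collagens were higher than lower in AAV-Cre WT than in Nestin-Cre WT mice. In PFC 12 of 43 members were higher and 1 lower, against 18.1% and 19.7% of all genes. When only the WT libraries were fitted, 23 in place of 13 passed, a count to which these shares do not belong. In STR 23 were higher and 2 lower, against 28.5% and 29.2%. In SN 17 were higher and 6 lower, against 32.7% and 28.3%. The WT libraries of the models also differed in markers of other cells. In SN the 8 of oligodendrocytes, led by Mbp, summed to 25773 ± 5460 (Nestin-Cre) and 16505 ± 2533 cpm (AAV-Cre). The 5 of astrocytes there, led by Gfap, summed to 3218 ± 746 and 2222 ± 314, with none at 0. By the sums given above, endothelial markers were higher in AAV-Cre WT in each region, and the STR list was lower in AAV-Cre STR. Pericyte and smooth muscle markers were higher in PFC and STR and, with all libraries, lower in SN. The part of these cells was not tested. The member medians were 0.34, 0.60 and 0.38, against 0.01, 0.01 and 0.03 over all genes. In STR, the injected region, 17 passed in place of 25 without the libraries rich in Ttr, and in SN 28 passed in place of 23 without those rich in fibroblast markers. The shares of all genes above belong to the fit of all libraries, so the counts of these refits cannot be read against them. Age, the injection and the source of Cre cannot be told apart here.

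Col16a1 rose in all 3 regions. In PFC it went from 23.0 to 40.0 cpm, with overlap (0.79, standard error 0.19, edgeR quasi-likelihood with Benjamini-Hochberg adjusted p 0.000701). In STR it went from 18.8 to 38.5 cpm, without overlap (1.03, adjusted p 1.67e-05), and in SN from 45.3 to 78.2 cpm, with overlap (0.79, adjusted p 0.000465). Col19a1 rose in SN alone, from 11.5 to 31.3 cpm with overlap (1.44, adjusted p 3.96e-08), and its differences in PFC (0.23) and STR (0.06) did not pass. The type IV chains Col4a1 and Col4a2 rose in each region, and in STR all 6 type IV chains rose, Col4a6 by 0.92 with all libraries and 0.33 (adjusted p 0.505) without those rich in Ttr. The summed endothelial markers were also larger in AAV-Cre WT in each region, and their part was not tested. Col4a2 in SN went from 47.7 cpm (35.7, 48.0, 58.0) to 118.8 (93.2, 122.3, 141.1), without overlap (1.31, adjusted p 4.77e-08). Col11a1 in SN went from 40.1 to 119.5 cpm, without overlap (1.57, adjusted p 3.16e-08). Col14a1, a FACIT, rose in STR from 0.624 cpm (0.234, 0.539, 1.39) to 2.21 (1.32, 2.26, 3.37), with overlap (1.82, adjusted p 4.28e-06). Col6a2 and Col6a1 rose in PFC, by 0.92 (adjusted p 0.00616) and 0.76 (0.0325), and neither pair of groups overlapped. Col25a1 was the member that fell in PFC (-0.29, adjusted p 0.0558).

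Other differences between the models depended on the libraries that stood apart. In STR, Col8a1, Col4a3, Col4a4 and Col8a2 rose by 2.86, 2.498, 2.44 and 1.91. Without libraries over 1000 cpm of Ttr the values in STR WT, AAV-Cre minus Nestin-Cre, were 0.51 for Col8a1 (adjusted p 0.174), 0.66 for Col4a3 (0.197), 0.55 for Col4a4 (0.378) and 0.86 for Col8a2 (0.107), and none passed. In SN the interstitial collagens Col3a1, Col1a2 and Col1a1 fell by 2.25, 1.47 and 1.27. Without libraries over 1000 cpm of fibroblast markers the values in SN WT, AAV-Cre minus Nestin-Cre, were -0.27 for Col1a2 (adjusted p 0.46) and -0.38 for Col1a1 (0.235). In the same fit the log2 fold change of Col3a1, SN WT, AAV-Cre minus Nestin-Cre, without libraries over 1000 cpm of fibroblast markers was -0.81 (adjusted p 0.0734) and still passed.

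The difference between the models was itself compared between regions. From PFC to STR it passed upwards in 4 members and downwards in 1, against 12.6% and 12.8% of all genes. From PFC to SN it passed upwards in 8 and downwards in 5, against 23.2% and 18.9%. From SN to STR it passed upwards in 11 and downwards in 4, against 12.7% and 17.1%. Between the injected striatum and cortex these were Col8a1 (3.39, adjusted p 0.0099), Col4a3 (2.42, 0.0908), Col14a1 (1.29, 0.0268), Col4a5 (0.96, 0.0403) and the fibrillar Col5a2 (-1.12, 0.0822). Without libraries over 1000 cpm of Ttr the same differences were 1.06 for Col8a1 (adjusted p 0.0569), 0.60 for Col4a3 (0.515), 1.23 for Col14a1 (0.0429), 0.68 for Col4a5 (0.0885) and -1.20 for Col5a2 (0.09), so that Col4a3 no longer passed. From PFC to SN, Col3a1, Col1a2 and Col1a1 passed downwards (-1.57, -1.25 and -0.94), and without libraries over 1000 cpm of fibroblast markers they did not pass (-0.11, -0.03 and -0.03, adjusted p 0.899, 0.961 and 0.956). Col19a1 differed in SN from both other regions (1.21 against PFC, adjusted p 0.000541; -1.38 for STR against SN, 0.000449). Col16a1 did not differ between regions (0.25, -0.002 and 0.25, adjusted p 0.579, 0.998 and 0.564), its model difference being of similar size in each. For Col25a1 the difference between the models had opposite signs, -0.29 in PFC and 0.47 in SN (0.76 apart, adjusted p 0.000343).

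Between genotypes no collagen passed in Nestin-Cre mice. The edgeR quasi-likelihood test with Benjamini-Hochberg adjustment gave 0 of 41, 41, 39, 39, 43 and 43 members for HET and HOM in PFC, STR and SN. The shares of all genes that passed were 0%, 0.25%, 0%, 0%, 0% and 0%. At unadjusted p under 0.05 there were 36 of 246 member tests, and all but 1 of them pointed upwards. In PFC these were 2 for HET and 5 for HOM, against 9.72% and 10.1% of all genes. Oligodendrocyte markers in PFC libraries summed to 3644 to 6157 cpm in WT, 3211 to 3792 in HET and 2666 to 4439 in HOM. The STR list summed to 206 to 467, 131 to 212 and 110 to 256 cpm, and fibroblast markers to 128 to 275, 211 to 300 and 230 to 245. The part of these markers in the PFC values was not tested. In STR there were 14 for HET and 7 for HOM, against 17.3% and 4.62%, and in SN 5 and 3, against 8.99% and 4.09%. Without the libraries rich in fibroblast markers, these markers summed to 233, 557 and 565 cpm in SN of WT, HET and HOM. The PFC list there summed to 11.5, 46.8 and 96 cpm and the oligodendrocyte markers to 28917, 22720 and 20941. Their part in the SN values was not tested. In STR the endothelial markers summed to 199, 235 and 252 cpm, those of pericytes and smooth muscle to 205, 221 and 253, and those of fibroblasts to 72.9, 167 and 86.3 in WT, HET and HOM, with no marker at 0, and their part was not tested. The 4 STR region markers, led by Ppp1r1b, summed to 5319 (4336 to 6050), 3748 (2797 to 5288) and 4560 cpm (3327 to 5612) in WT, HET and HOM, and the 5 astrocyte markers, led by Slc1a3, to 1087, 1376 and 1178. Their part in the HET values, that of Col19a1 included, was not tested either. The fibroblast sum of HET rests on the library rich in Ttr (629 cpm), and is 90 without it. The likelihood ratio test passed 45 (3.08% of all gene tests) and DESeq2 6 (1.01%). The member medians were 0.06 and 0.19 in PFC, 0.39 and 0.395 in STR and 0.20 and 0.37 in SN.

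The members nearest to passing in Nestin-Cre mice came from several classes. Col6a1 in PFC measured 127 to 209 cpm in WT (median 142) and 187, 191, 198 and 221.6 cpm in the 4 HOM libraries, with overlap (0.41, standard error 0.10, adjusted p 0.121). Col26a1, a small collagen of uncertain role, measured 4.26 to 8.16 cpm in WT (median 6.97) and 8.57, 9.17, 9.57 and 10.01 in HOM, without overlap (0.50, adjusted p 0.178). In STR HET the multiplexin Col18a1 measured 3.71 to 17.1 cpm (median 7.07) against 2.30 to 4.95 (3.12) in WT, with overlap (1.23, standard error 0.32, adjusted p 0.175). The type IV chain Col4a5 measured 3.84 to 12.0 cpm (5.95) against 2.40 to 4.21 (2.96), with overlap (1.07, standard error 0.27, adjusted p 0.175). Nestin-Cre STR HET holds 1 library rich in Ttr. Such libraries were above all others of their group in 4 of 6 groups for Col18a1 and in 4 of 6 for Col4a5. None of the genotype differences named here is established at the threshold used.

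Nor did any collagen pass between genotypes in AAV-Cre mice. The same test gave 0 of 41, 41, 41, 41, 43 and 43 members for HET and HOM in PFC, STR and SN, and 0%, 0.0137%, 0%, 0%, 0% and 0% of all genes. At unadjusted p under 0.05 there were 29 of 250 member tests. In PFC these were 7 for HET (6 lower) and 12 for HOM (all lower), against 12.3% and 14.2% of all genes. Summed marker levels were lower there too, from WT to HET and HOM: 358, 317 and 309 cpm for the 9 endothelial markers, 279, 231 and 227 for the 9 of pericytes and smooth muscle, and 201, 170 and 177 for the 12 of fibroblasts, led by Slc2a1, Vtn or Rgs5, and Igf2, with no marker at 0. Their part in the collagen values was not tested. In STR there were 1 and 4, against 1.71% and 4.58%, and in SN 3 and 2, against 4.69% and 7.49%. The likelihood ratio test passed 30 (1.64% of all gene tests) and DESeq2 1 (0.234%). The member medians were -0.20 and -0.25 in PFC, -0.04 and -0.06 in STR and 0.01 and 0.12 in SN. Col12a1 came nearest, in PFC, with 33.3 to 52.5 cpm in WT (median 45.2) and 17.5 to 47.1 in HOM (29.8), with overlap (-0.57, standard error 0.16, adjusted p 0.17). Col6a1 in PFC measured 209.6 to 329.7 cpm in WT (256) and 158 to 264.7 in HOM (204.9), with overlap (-0.33, adjusted p 0.205). Col9a2, a FACIT of cartilage type fibrils, measured 7.71 to 8.66 cpm in STR WT (8.23) and 9.18 to 15.4 in HOM (11.8), without overlap, yet did not pass (0.53, standard error 0.13, adjusted p 0.527). The 6 partner lists gave 0 of 384 gene tests in each model.

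**Figure D4:**
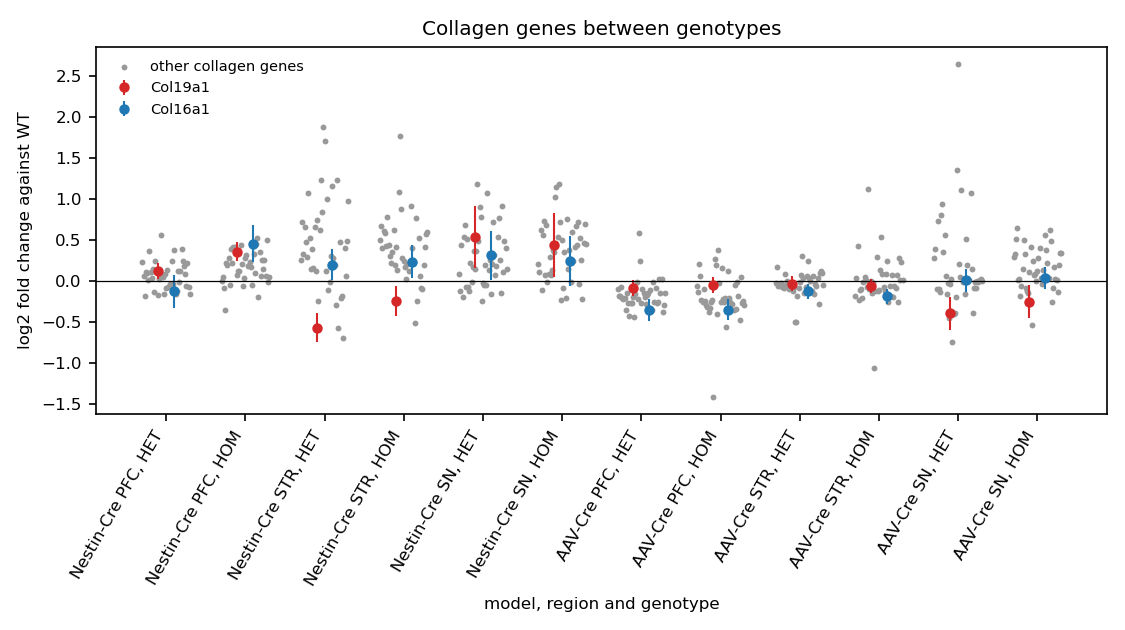
Log2 fold change against WT of each collagen gene in the 12 genotype comparisons, with standard errors for Col19a1 and Col16a1. In Nestin-Cre mice most points lie above 0 (member median 0.395 in STR HOM) and in AAV-Cre PFC most lie below (-0.25 in HOM), and none passed.

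Col19a1 and Col16a1 did not pass between genotypes by the quasi-likelihood test, but their calls turn with the test. By the likelihood ratio test 6 of their 24 comparisons passed: Col19a1 in Nestin-Cre PFC HOM (adjusted p 0.015), Nestin-Cre STR HET (0.0123) and AAV-Cre SN HET (0.0144), and Col16a1 in Nestin-Cre PFC HOM (0.00683), AAV-Cre PFC HET (0.0213) and AAV-Cre PFC HOM (0.00883). By DESeq2 the fall of Col19a1 in Nestin-Cre STR HET alone passed (0.0742). Col19a1 in Nestin-Cre PFC measured 35.1 to 59.1 cpm in WT (median 53.5) and 51.5, 63.6, 71.7 and 73.7 in HOM, with overlap (0.36, adjusted p 0.251). Marker sums of the Nestin-Cre PFC groups are given above, and their part was not tested. In Nestin-Cre STR it measured 17.7 to 25.5 cpm in WT (19.2) and 7.24 to 19.8 in HET (13.3), with overlap (-0.57, standard error 0.18, adjusted p 0.18). In AAV-Cre SN it measured 17.7 to 42.8 cpm in WT (31.5) and 12.6 to 32.3 in HET (23.1), with overlap (-0.40, adjusted p 0.946). In AAV-Cre PFC and STR its differences were at most 0.09 in size (-0.09, -0.05, -0.03 and -0.06). Col16a1 in Nestin-Cre PFC measured 12.2 to 38.3 cpm in WT (20.4) and 22.6, 26.1, 37.3 and 39.7 in HOM, with overlap (0.45, adjusted p 0.523). In AAV-Cre PFC it measured 25.2 to 49.4 cpm in WT (39.3), 22.4 to 39.0 in HET (32.2) and 25.7 to 37.0 in HOM (31.3), with overlap (-0.35 and -0.35, adjusted p 0.34 and 0.252). In AAV-Cre SN it was level over the genotypes, with means of 78.2, 78.0 and 79.5 cpm.

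Whether genotype acted differently by region or by model was tested directly. Over the 8 comparisons of genotype by region, 0 of 344 member tests passed, against 0.0335% of all gene tests, and DESeq2 also gave 0. With mouse as a block, which uses the pairing of regions, 2 passed, both upwards in AAV-Cre HOM minus WT, SN minus PFC, where 1.11% of all genes did: Col6a4 (0.91, adjusted p 0.0797) and Col15a1, a multiplexin (0.46, adjusted p 0.0913). At unadjusted p under 0.05 there were 21, against 5.9% of all. Over the 6 comparisons of genotype by model, 3 of 258 member tests passed, against 1.09%, and 39 had unadjusted p under 0.05, against 12%. All 3 were lower effects of HET in AAV-Cre than in Nestin-Cre SN, where 2.83% of all genes passed downwards. They were Col11a1 (-1.09, standard error 0.32, adjusted p 0.0686), Col19a1 (-0.96, 0.30, 0.0788) and Col4a2 (-0.83, 0.275, 0.0964). In Nestin-Cre SN the HET libraries spread widely: Col11a1 ran from 26.4 to 155.2 cpm (median 58.0) against 32.5 to 50.0 (39.9) in WT, and Col4a2 from 40.2 to 126.3 (51.5) against 35.7 to 58.0 (48.0). In AAV-Cre SN Col11a1 ran from 80.8 to 153.7 cpm (111.4) in HET and from 83.5 to 151 (127.5) in WT, with full overlap. Marker sums differed too. In Nestin-Cre SN the 12 fibroblast markers summed to 655 cpm in WT and 652 in HET (233 and 557 without the libraries rich in them), and in AAV-Cre SN to 226 in WT and 383 in HET (304 without the library rich in Ttr). The 8 oligodendrocyte markers, led by Mbp, summed to 25773 and 21791 cpm in Nestin-Cre and to 16505 and 18609 in AAV-Cre SN, with no marker at 0, and the part of these cells was not tested. Without the libraries rich in Ttr 0 passed. Without those rich in fibroblast markers 12 did, a count that cannot be read against the 1.09%, which belongs to the fit of all libraries. Of the 3 named genes Col19a1 alone passed there (-1.14, adjusted p 0.0244), and Col11a1 (-0.96, 0.121) and Col4a2 (-0.83, 0.101) did not. Both the number and the genes thus depend on a few libraries. The partner lists gave 4 of 408 tests, against the same 1.09%: Adamts3 (-0.77, adjusted p 0.0551), the collagen-binding integrin chain Itgb1 (0.38, 0.0987) and P4hb, which serves collagen folding (0.22, 0.0946), in SN HET, and the receptor Adgrg1 (-0.50, 0.0979) in STR HET.

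Col6a4 was chosen for its likeness between regions of a mouse after the values of all 43 members were seen, so its correlations are a description, with no test. With genotype means removed, its level in PFC and STR of the same mouse had r 0.844 (rho 0.843) over 15 Nestin-Cre mice and r 0.942 (rho 0.936) over 21 AAV-Cre mice, the highest of all members in both models. Without the 2 farthest mice r was 0.816 and 0.912. In AAV-Cre mice SN followed too, with r 0.83 against PFC (rho 0.791; 0.776 without 2) and 0.897 against STR (rho 0.913; 0.875 without 2). In Nestin-Cre mice r with SN was 0.455 for PFC and 0.447 for STR, where 7 and 6 other members were higher. The median member had r from 0.0958 to 0.234 over the same pairs of regions, and the cartilage collagen Col2a1 came second in AAV-Cre PFC and STR (r 0.916).

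Several members are neighbours in the genome. Col4a1 and Col4a2 start 21 bases apart on opposite strands of chromosome 8, and fell alike from PFC to STR (-1.38 and -1.14 in Nestin-Cre mice). Col4a4 and Col4a3 start 72 bases apart on chromosome 1, and Col4a6 and Col4a5 1343 bases apart on the X chromosome. Col9a1 and Col19a1 lie 4944 bases apart on chromosome 1 on opposite strands, and differ in SN: from PFC to SN Col19a1 fell by 2.15 in Nestin-Cre mice while Col9a1 did not pass (0.16). The chains Col6a6, Col6a5 and Col6a4 lie side by side on chromosome 9, and from STR to SN Col6a6 rose by 2.17 and 3.04 while Col6a5 fell by 1.92 and 2.28 and Col6a4 by 3.27 and 2.84. Col6a2 and Col6a1, neighbours on chromosome 10, both fell (0.65 and 3.00 in Nestin-Cre mice, 1.96 and 3.57 in the AAV-Cre model). Of the 3 neighbouring pairs of type VI chains, 2 thus had the same direction from STR to SN and 1 did not. The sizes differed, with Col6a2 falling less than Col6a1. From PFC to SN in Nestin-Cre mice Col6a1 fell (-2.81) while Col6a2 did not pass (-0.38).

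The bases before the start are shown for pairs of members that moved together, from the RefSeq annotation of GRCm38.p6. Capitals mark 3 short promoter motifs on either strand: TATAAA (the TATA box), CCAAT, and GGGCGG, the site of Sp1. Of 32851 windows of 250 bases upstream of gene starts, 12.4% hold TATAAA, 33.8% CCAAT and 32.7% GGGCGG. Of the 34 members with a window, 4, 13 and 21 do in at least 1 window. This counts genes, which may have several windows, and cannot be read against the shares of single windows. A match is a description of the bases only. Col11a1 (chr3:114030290-114030539, plus strand) and Col25a1 (chr3:130180595-130180844, plus strand) both rose in SN. Each holds 1 CCAAT and 2 GGGCGG boxes and no TATAAA, and neither window overlaps an annotated exon.
Col11a1: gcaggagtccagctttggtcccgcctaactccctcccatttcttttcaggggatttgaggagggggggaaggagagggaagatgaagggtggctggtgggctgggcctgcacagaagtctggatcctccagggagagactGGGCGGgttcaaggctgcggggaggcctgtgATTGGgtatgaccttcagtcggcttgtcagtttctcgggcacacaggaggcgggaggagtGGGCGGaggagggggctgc
Col25a1: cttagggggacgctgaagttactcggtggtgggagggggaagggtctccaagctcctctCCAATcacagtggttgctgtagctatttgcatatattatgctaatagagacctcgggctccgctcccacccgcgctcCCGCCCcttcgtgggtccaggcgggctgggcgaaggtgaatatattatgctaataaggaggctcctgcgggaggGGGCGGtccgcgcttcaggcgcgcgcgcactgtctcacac

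Col5a1 (chr2:27886175-27886424, plus strand) and Col24a1 (chr3:145292222-145292471, plus strand) both fell in STR. Col5a1 holds 2 GGGCGG boxes and Col24a1 holds no match, again outside annotated exons. The 71 bases between the starts of Col4a4 and Col4a3 (chr1:82586850-82586920, minus strand) are shown because both genes stood high in libraries rich in Ttr, and hold no match.
Col5a1: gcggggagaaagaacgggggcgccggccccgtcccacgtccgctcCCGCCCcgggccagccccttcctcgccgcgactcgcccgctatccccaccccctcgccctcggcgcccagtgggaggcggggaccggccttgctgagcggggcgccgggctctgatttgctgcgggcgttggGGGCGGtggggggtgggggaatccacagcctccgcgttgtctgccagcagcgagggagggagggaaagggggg
Col24a1: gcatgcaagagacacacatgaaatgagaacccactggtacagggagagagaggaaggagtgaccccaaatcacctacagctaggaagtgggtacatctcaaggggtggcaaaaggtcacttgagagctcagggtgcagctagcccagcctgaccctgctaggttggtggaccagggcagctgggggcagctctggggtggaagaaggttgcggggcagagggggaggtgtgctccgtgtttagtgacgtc
Col4a4-Col4a3: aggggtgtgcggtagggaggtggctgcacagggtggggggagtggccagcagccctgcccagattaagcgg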

How the data were processed

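RNA of 3 brain regions was read in 121 libraries, 1 per mouse and region. Per the labels, bcl2fastq 2.20.0.422, STAR 2.5.2b on mm10 and featureCounts 1.5.1 were used upstream, and the deposited table holds raw read counts per gene symbol. Every column was used (0 unused). The 6 lines without a symbol (0.00368% of counts) stayed in the totals and, where they reached the threshold, in the fits. Library totals ran from 9869584 to 26750905 counts, so 1 cpm is at least 9 reads. Levels are cpm on TMM-scaled totals, per kilobase of merged exons where genes are compared. A fit kept genes that reached 1 cpm in 3 or more of its libraries. Genotypes were compared in 1 fit per model and region, and regions, models and interactions in 1 joint fit of 18 groups, by edgeR 4.0.16 (quasi-likelihood, trended dispersion) with Benjamini-Hochberg adjustment over all genes of the fit. R 4.3.3, DESeq2 1.42.0, limma 3.58.1, Python 3.11.15, numpy 2.4.6, pandas 2.3.3, scipy 1.17.1 and matplotlib 3.10.9 were used. The code was checked on simulated data. Named genes are Col19a1, Col16a1, the 4 largest rises and falls of each region or model comparison, and members that passed an interaction; other members, marked by their levels or smallest adjusted p, were chosen after seeing the values. Members and lists were chosen with earlier results of these data known. Mouse numbers in the labels pair regions: libraries of the same mouse correlated at a median of 0.178 to 0.27, and those of other mice at -0.0172 to 0.000869. Alternatives were the likelihood ratio test, DESeq2, its size factors, no filter, adjusted p under 0.05, only the groups compared, mouse as a block, leaving out mouse M4575, libraries that stood apart or each library of the group of 4, and plain totals. Correlations used 100000 permutations.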

Additional observations from a re-analysis of the deposited data

Results flagged for a closer look

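Some libraries lay far from the rest of their group. For 13 collagen genes in each of the 18 groups (234 sets of values), a value was noted when its gap to the nearest library was large against the range of the group, which chance gives in about 1 in 20 sets; 31 were noted, 10 of them in libraries rich in Ttr, 2 in libraries rich in fibroblast markers and 19 in other libraries. Among the fibrillar genes, Col3a1 measured 9.81 cpm in Nestin-Cre STR HOM M4627 and 72.3 in SN HET M4628, and Col5a2 14.4 in AAV-Cre PFC WT M3576 and 13.4 in AAV-Cre SN WT M3578. Of the type IV chains, Col4a3 measured 12.2 cpm in Nestin-Cre STR HET M4566, 11.1 in AAV-Cre STR WT M3585 and 19.2 in AAV-Cre SN HET M3676. Col4a4 measured 6.63, 11.8 and 20.4 cpm in the same libraries and 2.95 in Nestin-Cre SN HET M4628. The short-chain Col8a1 measured 4.12 cpm in Nestin-Cre PFC WT M4575, 18.6 in Nestin-Cre STR HET M4566, 6.01 in AAV-Cre PFC HET M3676, 4.26 in AAV-Cre PFC HOM M3690, 37.5 in AAV-Cre STR WT M3585 and 79 in AAV-Cre SN HET M3676. Of the type VI chains, Col6a1 measured 343 cpm in AAV-Cre STR HET M3652. Col6a4 measured 9.61 cpm in Nestin-Cre PFC WT M4612, 8.93 in HET M4566, 1.1 in HOM M4569 and 6.28 in Nestin-Cre SN HOM M4580. In AAV-Cre HOM M3687 it measured 10.1 cpm in PFC, 27.4 in STR and 5 in SN. Col6a6 measured 0 cpm in Nestin-Cre STR WT M4394, 3.66 in STR HOM M4627, 1.46 in AAV-Cre PFC WT M3576 and 8.34 in AAV-Cre SN WT M3677. Of the FACIT genes, Col19a1 measured 25.5 cpm in AAV-Cre STR WT M3649 and Col22a1 6.86 in AAV-Cre PFC WT M3649.

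A further 36 values were noted because a difference passed a test that compares it between groups (log2). For AAV-Cre minus Nestin-Cre WT, STR minus PFC they were Col4a3 2.42, Col5a2 -1.12, Col14a1 1.29, Col8a1 3.39 and Col4a5 0.96. For SN minus PFC they were Col19a1 1.21, Col3a1 -1.57, Col11a1 1.05, Col25a1 0.76, Col24a1 0.92, Col1a2 -1.25, Col4a2 0.83, Col4a1 0.54, Col7a1 0.78, Col6a6 1.62, Col6a2 -1.57, Col1a1 -0.94 and Col4a6 -0.94. For STR minus SN they were Col19a1 -1.38, Col3a1 1.72, Col9a3 1.21, Col11a1 -1.24, Col25a1 -0.41, Col24a1 -1.43, Col8a2 2.66, Col1a2 1.46, Col13a1 1.24, Col6a2 1.32, Col1a1 1.40, Col14a1 1.70, Col8a1 3.05, Col4a5 1.57 and Col4a6 1.73. For SN HET minus WT between the models they were Col19a1 -0.96, Col11a1 -1.09 and Col4a2 -0.83. Without libraries over 1000 cpm of fibroblast markers, 6 of the 13 values for SN minus PFC, 8 of the 15 for STR minus SN and 2 of the 3 for SN HET minus WT no longer passed: for SN minus PFC Col3a1 was -0.11, Col1a2 -0.03, Col1a1 -0.03, Col6a2 -0.41, Col4a6 -0.11 and Col24a1 0.78. When libraries over 1000 cpm of Ttr were left out, 1 of the 5 values for STR minus PFC (Col4a3, 0.60), 4 of the 15 for STR minus SN and all 3 for SN HET minus WT no longer passed. The cause of these differences was not tested.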

How the results depend on the processing

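Numbers of collagens that pass moved as follows. Shares of all genes were given above for some alternatives only. These are the likelihood ratio test and DESeq2 between genotypes, and mouse as a block for AAV-Cre HOM minus WT, SN minus PFC. The other moved counts have no share beside them and are no result about collagens alone. In Nestin-Cre mice the count of 0 between genotypes became 45 with the likelihood ratio test and 6 with DESeq2, and without each HOM library of PFC in turn it ran from 0 to 0. In AAV-Cre mice it became 30 with the likelihood ratio test and 1 with DESeq2. Between models in PFC, 13 became 23 with only the WT libraries compared. For model by region, STR minus PFC, 5 became 3 at adjusted p under 0.05 and 3 with no filter. For genotype by region, 0 became 2 with mouse as a block, and the counts between regions kept within the margin; the block was fitted for these families only. For genotype by model, 3 became 0 at adjusted p under 0.05, 1 with no filter, 0 without libraries over 1000 cpm of Ttr and 12 without libraries over 1000 cpm of fibroblast markers. Log2 fold changes that changed sign were Col18a1, Nestin-Cre WT, SN minus PFC (-0.11 without libraries over 1000 cpm of fibroblast markers), Col8a1 and Col4a4, AAV-Cre WT, STR minus PFC (-0.321 and -0.052 without libraries over 1000 cpm of Ttr) and Col4a6, SN WT, AAV-Cre minus Nestin-Cre (0.001 without libraries over 1000 cpm of fibroblast markers). Col16a1, WT, AAV-Cre minus Nestin-Cre, SN minus PFC went from -0.002 to 0.002 with DESeq2 size factors, 0.025 with no filter on low counts and 0.014 without libraries over 1000 cpm of Ttr. Col19a1 changed sign in the genotype by region terms Nestin-Cre HOM minus WT, SN minus PFC (-0.032, replicate block) and AAV-Cre HOM minus WT, STR minus PFC (0.022, replicate block). So did the log2 fold change of Col19a1, AAV-Cre HET minus WT, STR minus PFC (-0.0005 without libraries over 1000 cpm of Ttr). Of 1391 alternative values of named genes, 1309 kept sign and call, 63 were weaker, 9 stronger and 10 reversed; the cause was not tested.

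Limits: groups hold 4 to 8 libraries, and the power to see small genotype differences is low. RNA was read in bulk, and levels of protein were not measured. Libraries rich in Ttr or fibroblast markers are spread unevenly over groups, and leaving them out was decided after seeing the data. The models differ in age, injection and source of Cre together. Mouse M4575 carries different genotype labels by region. Read length and poly-A selection limit what can be said of transcript forms.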
